A study of Danio rerio with 6 samples.

Results

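The genes of the Hedgehog pathway examined here were 3 ligands (*shha*, *shhb* and *ihhb*), the receptor *ptch1*, the transducer *smo*, the ligand-binding inhibitor *hhip* and 3 Gli transcription factors (*gli1*, *gli2a* and *gli3*). They were picked by name from the deposited table, which holds all 9 of them among 23150 genes. Whole zebrafish embryos were pooled at 18 hpf, after chorion and yolk had been taken off, and 3 mRNA libraries were made from each genotype. The mutant embryos had the genotype dusp2um287/um287;dusp6um286/um286, that is, both genes carried CRISPR deletions on both chromosomes, each allele going back to 1 founder fish. Their mothers and fathers were double homozygous as well. The paper reports that a large share of the embryos from such parents stop at the first cell division and die during gastrulation. The mutant pools therefore held embryos that had survived this loss. The wildtype embryos (dusp2+/+;dusp6+/+) came from the Ekkwill line. Dusp2 and Dusp6 are phosphatases that remove phosphate from the MAP kinase ERK. The parents of the mutants carried the deletions as well as the embryos. Effects of the parents, of the line, of the early loss of embryos and of the embryo's own genotype therefore cannot be told apart. The libraries are called mutant A, C and D and wildtype A, B and C after the letters of their columns.

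Hedgehog ligands are secreted proteins made in the embryonic midline, by the notochord and by the floor plate of the neural tube, and they pattern the ventral neural tube, the somites and the eye. Without ligand, the Patched receptors hold the membrane protein Smoothened inactive and Gli proteins act mainly as repressors. Ligand binding to Patched frees Smoothened, and full-length Gli proteins then activate transcription, including that of *ptch1*, *gli1* and *hhip*, whose products in part dampen the signal again. *ptch1* and *hhip* are for that reason commonly read as targets of the pathway as well as parts of it.

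The libraries held 36310355 to 45161306 expected counts, and the depths of the genotypes overlapped (37989443 to 44657980 in the mutants and 36310355 to 45161306 in wildtype). Levels are given as CPM (counts scaled to library size, here with TMM factors, which correct for differences in RNA composition), and fold changes as mutant over wildtype from edgeR's quasi-likelihood test. The *dusp6* transcript was at 28.5, 32.4 and 32.4 CPM in the mutants and at 212, 222 and 229 CPM in wildtype, and *dusp2* had 3, 7 and 7 counts in the mutants and 51, 35 and 71 counts in wildtype, which is the direction of the labels for both. Between libraries of 1 genotype the chi-square of the counts, per degree of freedom, was 3.62 to 15.5, more than counting noise gives, and both pairs that include mutant D had the highest values (12.7 and 15.5). No separate cultures or clutches are named for the libraries, so p-values measure the spread between these libraries, which may be technical. Counts are not divided by transcript length, and levels are therefore not compared between genes. Since whole embryos were sequenced, a smaller number of cells of a type and less RNA per cell cannot be told apart in any value below. All pools are given as 18 hpf, and whether both genotypes had reached the same stage of development was not tested. Markers of muscle, neural tissue, epidermis, primitive blood, endothelium, hatching gland and germ cells were detected in both genotypes, and 31 of the 32 listed could be tested.

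Between the genotypes, the Sonic ligands and several genes of the receiving side of the pathway moved in opposite directions. The ligands *shha* and *shhb* were higher in the mutants, by log2 fold changes of 0.17 and 0.33, whereas *ptch1*, *hhip*, *gli1* and *gli2a* were lower, by -0.20, -0.17, -0.27 and -0.23. The changes were small, the largest being that of *shhb* at 1.26-fold. Of all genes tested, 33.0% changed at least as much as *shhb*, 41.3% as *gli1* and 46.3% as *gli2a*. For *ptch1*, *hhip* and *shha* these shares were 51.6%, 57.0% and 58.0%. The transcripts of *ihhb*, *smo* and *gli3* did not pass the test. Thus 6 of the 9 genes passed the test at an adjusted p under 0.05, 2 of them higher and 4 lower. The background is large in this comparison: of the 20021 genes tested, 34.5% passed the same test, 17.4% higher and 17.1% lower. Among the 10453 genes whose mean level lay within the range of the 9, it was 42.3%, with 21.7% higher and 20.6% lower. None of the 9 passed with a fold change over 2 (0 genes in edgeR, in DESeq2's Wald test and in limma-voom). That rule was met by 4.95% of all genes, 2.54% higher and 2.42% lower. Without a fold requirement, 6 of the 9 had an unadjusted p under 0.05 in edgeR. The mutant libraries lay wholly above or wholly below the wildtype libraries in 7 of the 9 genes, 3 above and 4 below, as they did in 49.1% of all genes tested, 24.3% above and 24.8% below. Scaling by library size alone instead of TMM moved the balance over all genes, of which 2668 were then called higher and 4444 lower, against 3481 and 3418 with TMM. The share of higher calls was 37.5% with library size alone and 50.5% with TMM, and under library size *shha* no longer passed (log2 fold change 0.11, adjusted p = 0.13) while the directions of all 9 genes stayed as they were.

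**Figure D1:**
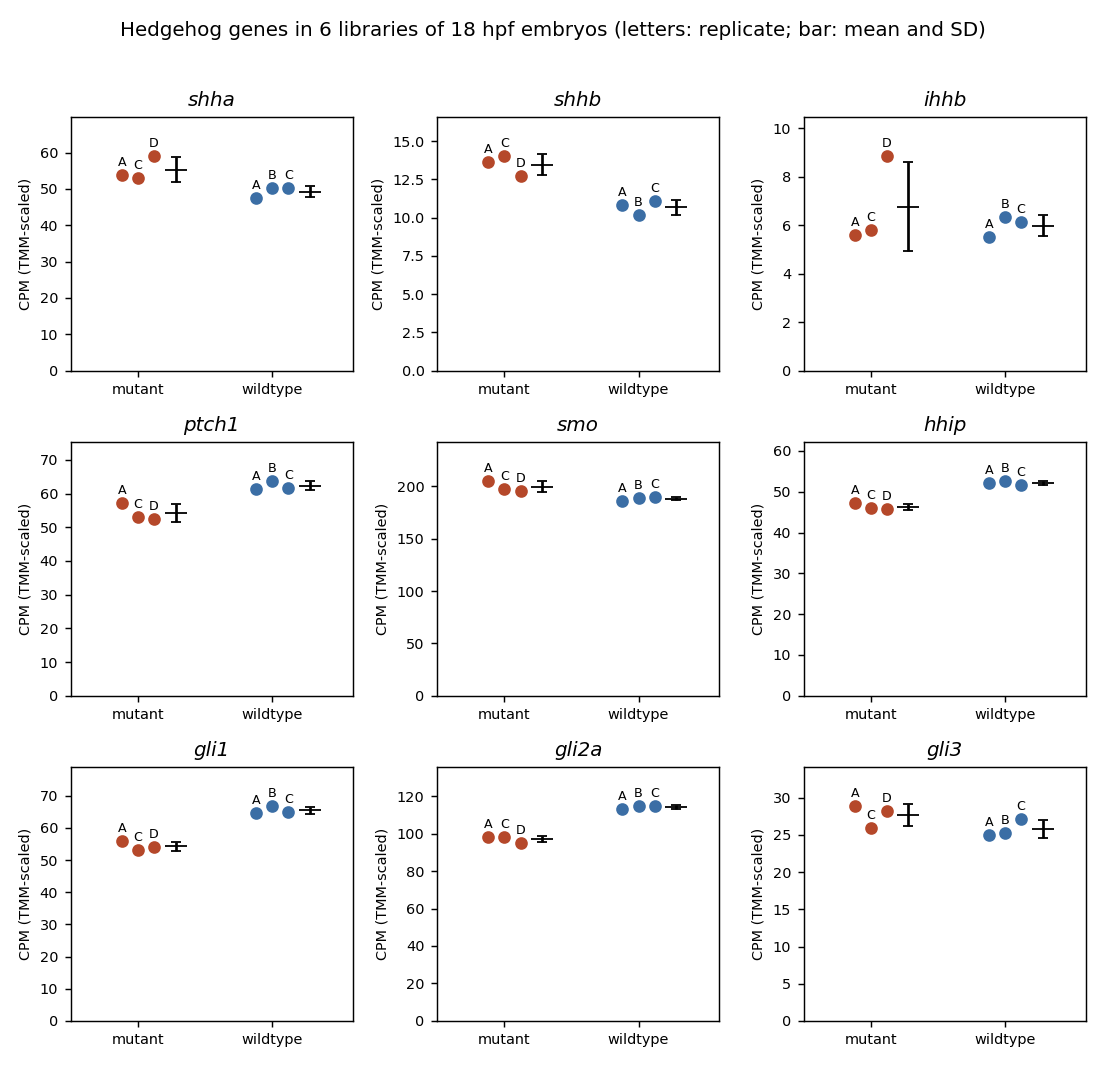
Levels of the 9 Hedgehog genes in CPM after TMM scaling (vertical axes, starting at 0), 1 panel a gene, with the 3 mutant libraries left and the 3 wildtype libraries right in each panel, library letters above the points, and the mean with its SD as a bar. The 3 mutant points of *gli1* (53.1 to 55.9 CPM) lie below all wildtype points (64.7 to 66.8 CPM), those of *shhb* lie above, and for *ihhb* mutant D stands alone at 8.87 CPM.

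Of the ligands, Sonic hedgehog, encoded by *shha*, is the main Hedgehog signal of the notochord and floor plate. *shha* was at 53.8, 53.0 and 59.1 CPM in mutants A, C and D and at 47.4, 50.1 and 50.1 CPM in wildtype A, B and C. Every mutant library thus lay above every wildtype library, with mutant D the highest of the 6. The log2 fold change was 0.17 (95% interval 0.047 to 0.29, standard error 0.055, edgeR adjusted p = 0.035). This call was a narrow one: the adjusted p was 0.0971 without mutant D, where the log2 fold change was 0.11, and 0.126, 0.0705 and 0.0781 without wildtype A, B or C.

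*shhb*, formerly called tiggy-winkle hedgehog, is the second Sonic ligand of zebrafish and is expressed in the ventral midline of the neural tube. It was at 13.6, 14.1 and 12.7 CPM in mutants A, C and D, against 10.8, 10.1 and 11.1 CPM in wildtype A, B and C. The groups did not overlap, and unlike for *shha* mutant D was the lowest of the mutants. The log2 fold change was 0.33 (95% interval 0.16 to 0.50, standard error 0.077, edgeR adjusted p = 0.0067). It stayed between 0.30 and 0.37 when each library was left out and passed in each of these fits.

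*ihhb*, an Indian hedgehog gene known in zebrafish as echidna hedgehog and expressed in the notochord, was the scarcest of the 3 in counts, with 205 to 332 counts per library. Its levels were 5.58, 5.80 and 8.87 CPM in mutants A, C and D and 5.50, 6.33 and 6.12 CPM in wildtype A, B and C. Mutants A and C lay within the wildtype range and mutant D alone above it. The log2 fold change was 0.17 with a 95% interval of -0.19 to 0.53 and an edgeR adjusted p of 0.46, and it was -0.077 without mutant D, so that no direction can be given for *ihhb*.

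*ptch1* encodes a Patched receptor, to which the ligands bind. It was at 57.2, 53.0 and 52.4 CPM in mutants A, C and D, against 61.4, 63.8 and 61.7 CPM in wildtype A, B and C. Each mutant library was below each wildtype library, with mutant A nearest to them. The fall was a log2 fold change of -0.20 (95% interval -0.31 to -0.092, standard error 0.050, edgeR adjusted p = 0.0095) and it passed with any 1 library left out (-0.24 to -0.18).

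*smo* encodes Smoothened, which carries the signal across the membrane and is not itself regarded as a target of the pathway. Its levels were 205, 198 and 196 CPM in mutants A, C and D and 186, 189 and 190 CPM in wildtype A, B and C. Here the mutant libraries were all the higher ones, but the log2 fold change of 0.084 had a 95% interval of -0.0035 to 0.17 and an edgeR adjusted p of 0.13, and *smo* was not called under any of the 13 alternatives.

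*hhip* encodes a membrane protein that binds Hedgehog ligands and keeps them from Patched. It was at 47.2, 45.9 and 45.7 CPM in the mutants and at 52.1, 52.7 and 51.7 CPM in wildtype. With an SD of 0.789 CPM in the mutants and 0.483 CPM in wildtype (n = 3 libraries each), the libraries of each genotype lay close together and the groups did not overlap. Its log2 fold change was -0.17 (95% interval -0.27 to -0.074, standard error 0.045, edgeR adjusted p = 0.012) and between -0.19 and -0.17 with each library left out.

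Of the Gli factors, *gli1* encodes an activator whose own transcription follows Hedgehog signalling. It had the lowest adjusted p of the 9 genes, 0.0010. The levels were 55.9, 53.1 and 54.0 CPM in mutants A, C and D, against 64.7, 66.8 and 64.8 CPM in wildtype A, B and C. The gap between the groups was wider than the range within either, and the mutant level was 0.83 of that in wildtype (log2 fold change -0.27, 95% interval -0.37 to -0.17, standard error 0.045). *gli2a*, a Gli factor that can activate or repress, was at 98.1, 98.0 and 95.2 CPM in the mutants and at 113, 115 and 115 CPM in wildtype. The libraries of each genotype again lay close together and apart from the others, with a log2 fold change of -0.23 (95% interval -0.32 to -0.14, standard error 0.040, edgeR adjusted p = 0.0012). In both genes the value hardly moved when a library was left out, between -0.29 and -0.25 for *gli1* and between -0.24 and -0.22 for *gli2a*.

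*gli3*, which in other vertebrates acts largely as a repressor when ligand is absent, was not called. It was at 28.9, 26.0 and 28.2 CPM in mutants A, C and D and at 25.0, 25.2 and 27.1 CPM in wildtype A, B and C, so that mutant C fell inside the wildtype range. The log2 fold change was 0.10 with a 95% interval of -0.038 to 0.24 (edgeR adjusted p = 0.24). That interval does not reach the fitted values of *gli1* and *gli2a*. RSEM divides reads that match several transcripts, and the counts were whole numbers (to within 0.005) in 5 of 6 libraries for *shhb*, *ihhb* and *gli3*, in 4 for *hhip*, in 3 for *shha*, in 1 for *ptch1*, and in 0 for *smo*, *gli1* and *gli2a*, whose counts hold a part assigned by the model.

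**Figure D2:**
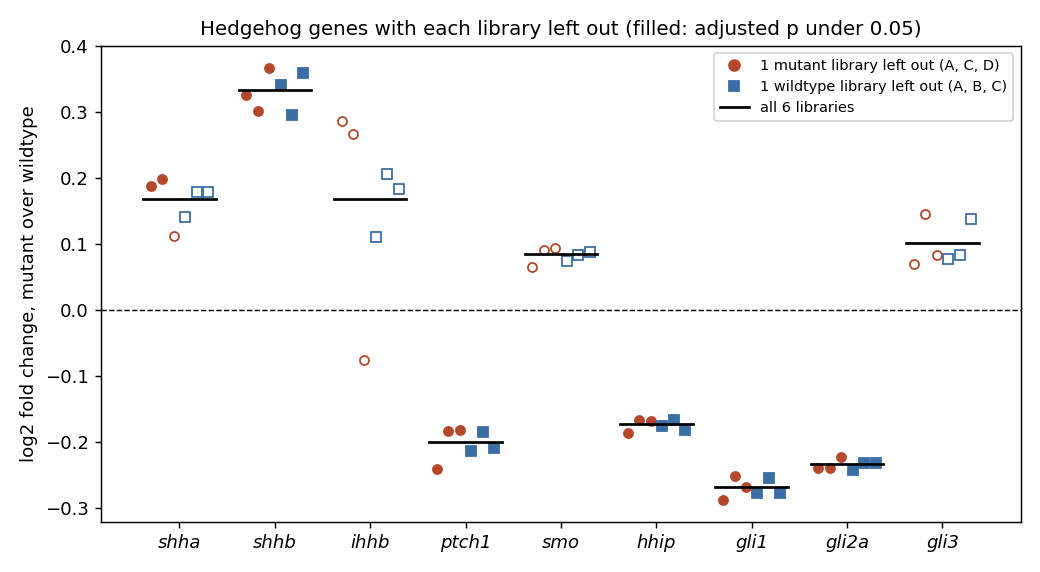
Log2 fold change of each Hedgehog gene, mutant over wildtype, with all 6 libraries (black line) and with 1 mutant library (circles, A, C and D from left to right) or 1 wildtype library (squares, A, B and C) left out, filled where the adjusted p was under 0.05. *shhb*, *ptch1*, *hhip*, *gli1* and *gli2a* are filled throughout, *shha* passes only without mutant A or C, and *ihhb* changes sign without mutant D (-0.077).

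To compare the genes without any scaling between libraries, ratios of counts were formed within each library. Transcript length cancels in the difference between genotypes but not in the ratio itself. The ratio of *ptch1* to *shha*, receptor and target over ligand, was 1.06, 1.00 and 0.886 in mutants A, C and D, against 1.29, 1.27 and 1.23 in wildtype A, B and C. On the log2 scale it was -0.028 ± 0.134 in the mutants and 0.34 ± 0.036 in wildtype (SD, n = 3 libraries each), a difference of -0.37. All mutant libraries were lower, mutant D the lowest, and the exact two-sided permutation test gave p = 0.10, the smallest that 3 against 3 libraries allow. Of the *gli1* to *gli3* ratio, the values were 1.93, 2.04 and 1.92 in the mutants and 2.59, 2.65 and 2.39 in wildtype, a log2 difference of -0.37. *ptch1* to *smo* was 0.279, 0.268 and 0.268 in the mutants and 0.329, 0.338 and 0.325 in wildtype, a log2 difference of -0.29. In these ratios the groups did not overlap, and their differences do not depend on how the libraries were scaled. For *ptch1* over *shha* and over *smo* the separation adds nothing to the levels above. There every mutant library was already lower for *ptch1* and higher for the other gene. The *gli1* to *ptch1* ratio differed by -0.067, with the mutant libraries again all below. The mutant ratios of *shhb* to *shha* (0.215 to 0.265) overlapped those of wildtype (0.202 to 0.229), with a log2 difference of 0.17 (exact permutation p = 0.30). *ihhb* to *shha* differed by -0.023 (exact permutation p = 1). Mutant D had the highest of the 6 values of this ratio, while the other mutants, with 0.104 and 0.110, lay below wildtype (0.116 to 0.126). Over the 6 ratios the adjusted p was 0.15 for the 4 that separated the groups, a design in which no ratio could pass 0.05.

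**Figure D3:**
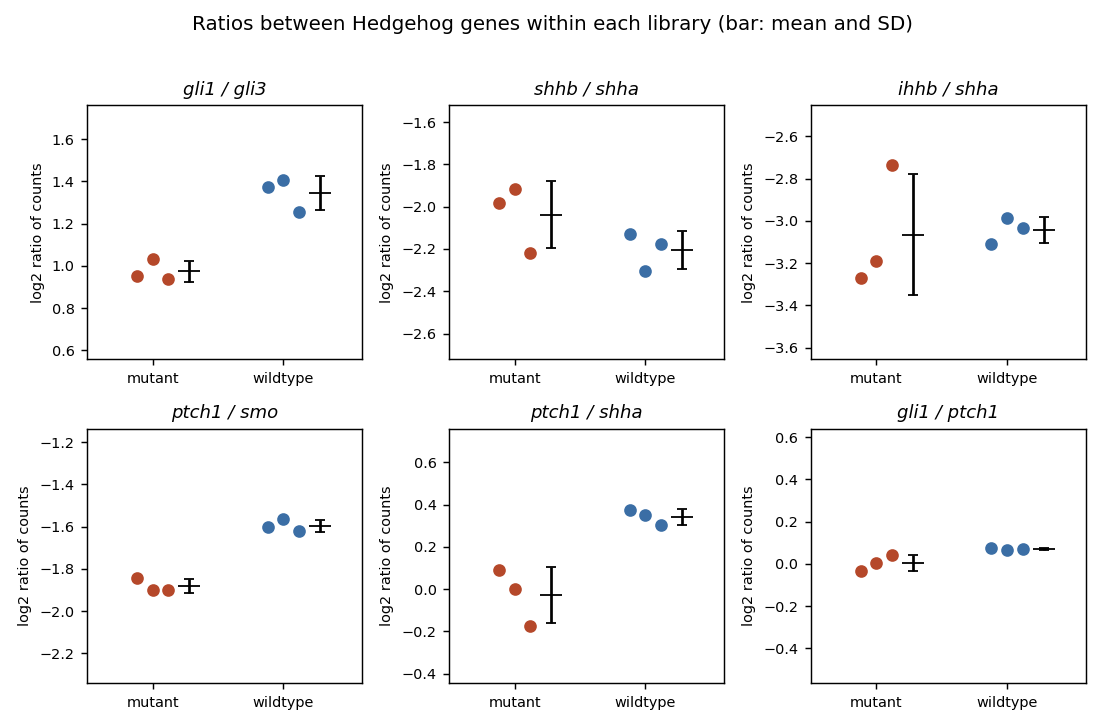
Log2 ratio of the counts of 2 Hedgehog genes within each library (vertical axes, each spanning the same log2 width), for 6 pairs of genes, mutant libraries left and wildtype libraries right, with the mean and SD as a bar. The groups are apart for *gli1* over *gli3*, *ptch1* over *smo*, *ptch1* over *shha* and, by the small difference of -0.067, *gli1* over *ptch1*, and they overlap for *shhb* and *ihhb* over *shha*.

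The rest of the pathway was followed in a list of 31 further genes, of which 25 were found in the table and could be tested. The genes *dhh*, *evc*, *evc2*, *talpid3*, *btrc* and *cul3b* were not analysed here. Of the 25, 3 passed (12%, against 34.5% of all genes), 1 higher and 2 lower, and the 3 encode receptors or co-receptors at the cell surface. The median log2 fold change of the list was 0.042. *cdon* and *boc*, related co-receptors that bind Hedgehog ligands together with Patched, both fell. *cdon* was at 130, 134 and 136 CPM in the mutants, against 166, 169 and 164 CPM in wildtype, and *boc* at 167, 164 and 163 CPM in the mutants, against 199, 208 and 210 CPM in wildtype. Their log2 fold changes were both -0.32 (standard errors 0.040 and 0.041, edgeR adjusted p = 0.00017 for both), and no library of one genotype reached those of the other. *lrp2a*, which encodes the endocytic receptor megalin, was higher with 39.2, 36.2 and 36.4 CPM in the mutants and 30.7, 25.1 and 27.9 CPM in wildtype (log2 fold change 0.42, 95% interval 0.26 to 0.58, adjusted p = 0.0013). The 3 passed with any 1 library left out.

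The co-receptors *gas1a* and *gas1b* had log2 fold changes of -0.067 and -0.14 (edgeR adjusted p = 0.33 and 0.11), and *gli2b*, the paralog of *gli2a*, had 0.028. Of the genes for acylation and release of the ligands (*hhat*, *disp1*, *scube1*, *scube2*, *scube3*) 0 of 5 passed, also in DESeq2's Wald test and limma-voom and at an unadjusted p under 0.05 in edgeR. Of all genes tested, 34.5% passed in edgeR. *scube2*, needed for release of the ligand, passed without mutant D (log2 fold change 0.16, adjusted p = 0.013), against 0.12 and 0.13 with all libraries. Among the intracellular regulators between Smoothened and Gli, 0 of 5 passed in any of the 3 tools, with 2 at an unadjusted p under 0.05 in edgeR. The Gli-binding inhibitor *sufu* had a log2 fold change of 0.10 and the kinesin *kif7* 0.12 (adjusted p = 0.10 and 0.059), with mutant libraries wholly above the wildtype ones in both, and *kif7* passed without mutant A, which brought the count over the list to 4. The kinase and degradation genes, among them *prkacaa*, *csnk1a1*, *gsk3b* and *spop*, lay between -0.081 and 0.12 and 0 of 8 passed in any tool, none at an unadjusted p under 0.05. Without mutant D, *prkar1aa*, the regulatory subunit of protein kinase A, passed as well (0.14, adjusted p = 0.025), which with *scube2* brought the count over the list to 5. Over all genes 6280 passed without mutant A and 6774 without mutant D, against 6899 with all libraries. *ihha* had fewer than 1 CPM and too few reads to limit its change (95% interval -1.60 to 0.41).

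**Figure D4:**
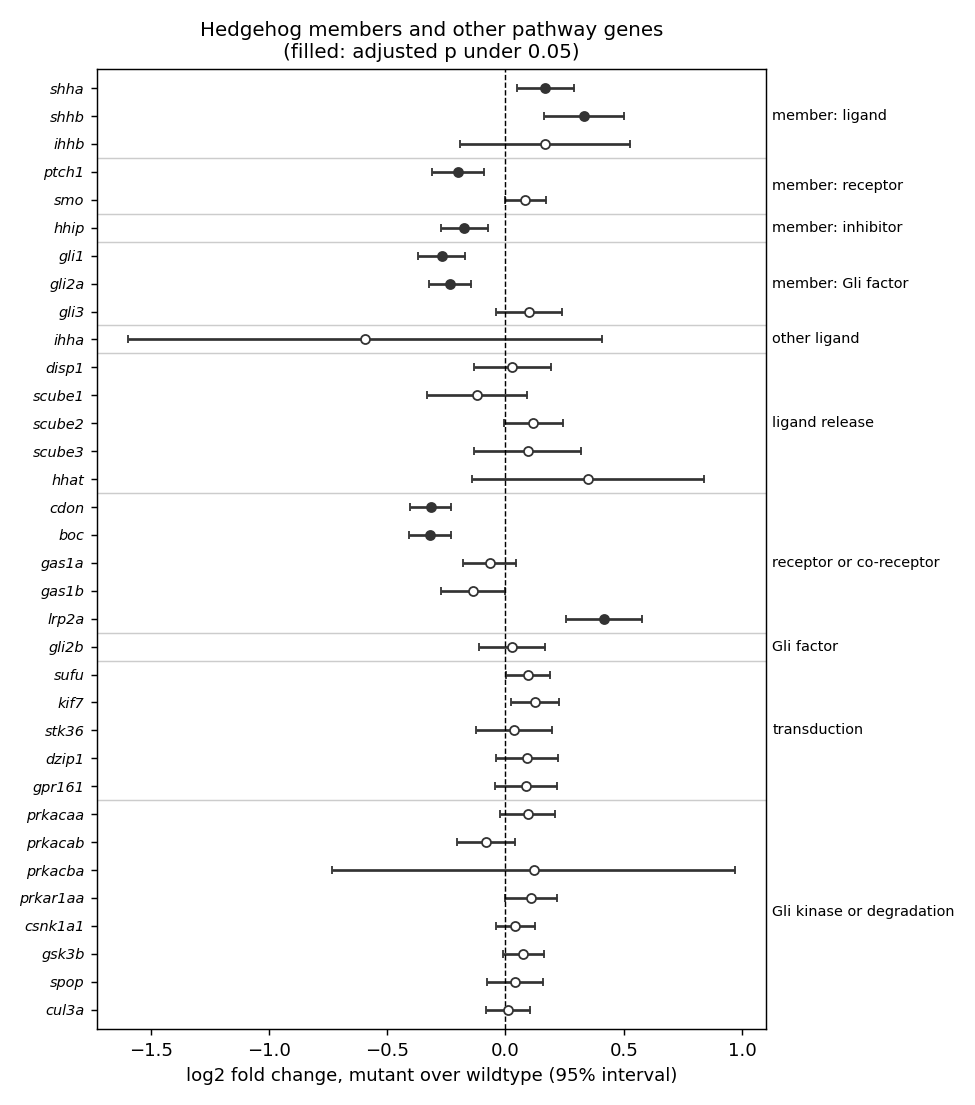
Log2 fold change, mutant over wildtype, with its 95% interval for the 9 Hedgehog genes (top) and 25 other genes of the pathway, grouped by role, filled where the adjusted p was under 0.05. Outside the 9, only *cdon* and *boc* (both -0.32) and *lrp2a* (0.42) are filled, and the intracellular regulators and kinases lie between -0.081 and 0.12.

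Genes known to be switched on by Hedgehog signals were then read by tissue. Of 28 such genes, all tested, the edgeR test called 6 higher and 13 lower, against 17.4% higher and 17.1% lower over all genes, with a median log2 fold change of -0.16 against -0.00065 over all genes. These 19 calls were 67.9% of the list, against 34.5% of all genes and 42.3% of those at the level of the 9 Hedgehog genes. The share of higher ones was close to that over all genes. The 9 Hedgehog genes, the list of other pathway genes, this list and those below were chosen with earlier results of these data known. Their shares are therefore not a test. In the ventral neural tube 5 of 10 genes rose and 1 fell. *foxa2*, a transcription factor of the floor plate and also of the endoderm, was at 29.2, 30.7 and 32.2 CPM in the mutants and at 22.8, 25.1 and 23.6 CPM in wildtype (log2 fold change 0.36, edgeR adjusted p = 0.0012), the mutant libraries all being above the wildtype ones. Its relative *foxa* rose by 0.40, and by 0.26 without mutant D, its highest library. The ventral homeobox genes *nkx2.2b*, *nkx2.9* and *nkx2.4b* rose by 0.38, 0.30 and 0.36, the call of *nkx2.9* passing in 4 of the 6 fits with a library left out. *nkx2.2a* in contrast fell, with 8.87 to 10.1 CPM in the mutants and 11.4 to 12.2 CPM in wildtype (log2 fold change -0.28, edgeR adjusted p = 0.023), although the call was lost in 2 of the 6 fits with a library left out. *nkx6.1*, *nkx6.2*, *olig2* and *foxa1*, from -0.12 to 0.12, did not pass.

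In the somites, the genes of slow muscle and muscle pioneers, the cells next to the notochord that depend on its Hedgehog signal, were lower with 1 exception. Of 7 genes, 6 fell and 0 rose in edgeR, in DESeq2's Wald test and in limma-voom (7 had an unadjusted p under 0.05 in edgeR), with a median log2 fold change of -0.61. Over all genes, edgeR called 17.4% higher and 17.1% lower. The Engrailed genes of the muscle pioneers are also expressed at the midbrain-hindbrain boundary. Of these, *eng2b* and *eng2a* fell by 0.49 and 0.40 on the log2 scale, and *eng1a* and *eng1b* by 0.89 and 0.61. *eng1a* was scarce, with means of 1.08 CPM in the mutants and 2.00 CPM in wildtype. *prox1a*, a factor of slow fibres, was at 12.3, 12.1 and 9.27 CPM in mutants A, C and D, against 19.9, 19.3 and 19.3 CPM in wildtype (log2 fold change -0.79, edgeR adjusted p = 0.00014). *smyhc1*, the slow myosin heavy chain, whose reads near-identical copies may share, was at 1180, 1183 and 725 CPM in the mutants and at 1659, 1492 and 1584 CPM in wildtype (log2 fold change -0.62, adjusted p = 0.0067). Mutant D was the lowest library for both. *prdm1a*, the factor that commits cells to the slow lineage, was the exception, with a log2 fold change of 0.11 (adjusted p = 0.061). The early myogenic factor *myf5* rose by 0.48 (edgeR adjusted p = 0.00012) to 43.3 ± 2.50 CPM in the mutants, against 31.0 ± 1.09 CPM in wildtype (SD, n = 3 libraries each), and *myod1* had 0.037 (adjusted p = 0.82). Without mutant D the same counts stood, 6 of 7 lower with a median of -0.48, and *myod1* passed as higher (0.18, adjusted p = 0.020). In that fit 3307 of all genes were higher and 3467 were lower.

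Most general markers of somitic muscle pointed lower too, though few passed. Of 9 that could be tested out of 10, 3 were lower and 1 was higher (*tnnt3b*, log2 fold change 0.36, edgeR adjusted p = 0.033). The median log2 fold change was -0.50. In 7 of the 9 the mutant libraries lay wholly below the wildtype ones, as in 24.8% of all genes. The calls made up 44.4% of the markers, against 34.5% of all genes and 42.3% of those at the level of the 9 Hedgehog genes. Their summed level was 800 to 1579 CPM in the mutants and 1780 to 2001 CPM in wildtype, with *pvalb1*, at 0 to 4 counts per library, left untested. *myog*, the myogenin gene, was at 85.0, 90.4 and 53.9 CPM in mutants A, C and D, against 123, 117 and 119 CPM in wildtype. Without mutant D, 7 of the 9 muscle markers were lower and 1 was higher, with a median of -0.24. The number of lower markers with all libraries also depended on the tool, 1 in DESeq2's Wald test and 5 in limma-voom against 3 in edgeR. The part of differing muscle content in the values of the slow muscle genes was not tested.

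Of the optic stalk genes 3 of 3 fell, where 17.1% of all genes were lower. *pax2a* is also expressed at the midbrain-hindbrain boundary, in the otic vesicle and in the pronephros. *vax1*, a homeobox gene of the ventral eye, was at 11.9, 11.8 and 11.9 CPM in the mutants, against 18.8, 15.2 and 18.7 CPM in wildtype (log2 fold change -0.57, edgeR adjusted p = 0.00063), with the mutant libraries almost equal and all lower. *vax2* and *pax2a* fell by 0.71 and 0.21 on the log2 scale, each passing in only some of the fits with a library left out (3 and 4 of 6). *vax2* was scarce, with means of 1.07 CPM in the mutants and 1.74 CPM in wildtype. Of 6 genes of the sclerotome and ventral mesoderm 3 fell, the Pax factors *pax1a* (-0.77), *pax1b* (-0.78) and *pax9* (-0.70), each with a mean of under 4 CPM in the mutants and each passing with any 1 library left out. The other 3 did not pass and differed in direction, *nkx3-2* (0.37), *foxf2a* (0.028) and *foxf1* (-0.25). *pax9* was at 2.71, 2.43 and 1.58 CPM in mutants A, C and D, against 3.78, 3.47 and 3.70 CPM in wildtype, with no overlap and mutant D the lowest.

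Genes that Hedgehog signals keep off in the ventral neural tube or eye were lower where they passed. Of 13 such genes, all tested, 0 were higher and 6 were lower in edgeR's test (8 passed an unadjusted p under 0.05, DESeq2's Wald test called 0 higher and 7 lower, limma-voom 0 and 6), and the median log2 fold change was -0.29. The 6 were 46.2% of the list. Lower calls made up 17.1% of all genes tested and 20.6% of those at the level of the 9 Hedgehog genes. Calls in either direction made up 34.5% and 42.3%. *pax6a*, a gene of the eye and neural tube, was at 71.2, 65.1 and 59.9 CPM in mutants A, C and D, against 86.8, 81.6 and 84.2 CPM in wildtype (log2 fold change -0.36, adjusted p = 0.0010). The dorsal genes *pax3a*, *pax7a* and *pax7b* fell by 0.35, 0.67 and 0.49 on the log2 scale, and *irx3a* and *gsx2* by 0.14 and 0.45, whereas *gsx1* and *dbx2* stood at 0.0064 and -0.020. *pax7a* was scarce, with means of 1.82 CPM in the mutants and 2.91 CPM in wildtype. In whole embryos these values cannot be assigned to the neural tube alone. Over the list, the mutant libraries were all below the wildtype ones in 9 of the 13 genes, the 6 called ones among them. The same was seen in 24.8% of all genes tested. The calls of *irx3a* and *gsx2* held in 4 and 5 of the 6 fits with a library left out, and without mutant D the median over the 13 was -0.16.

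**Figure D5:**
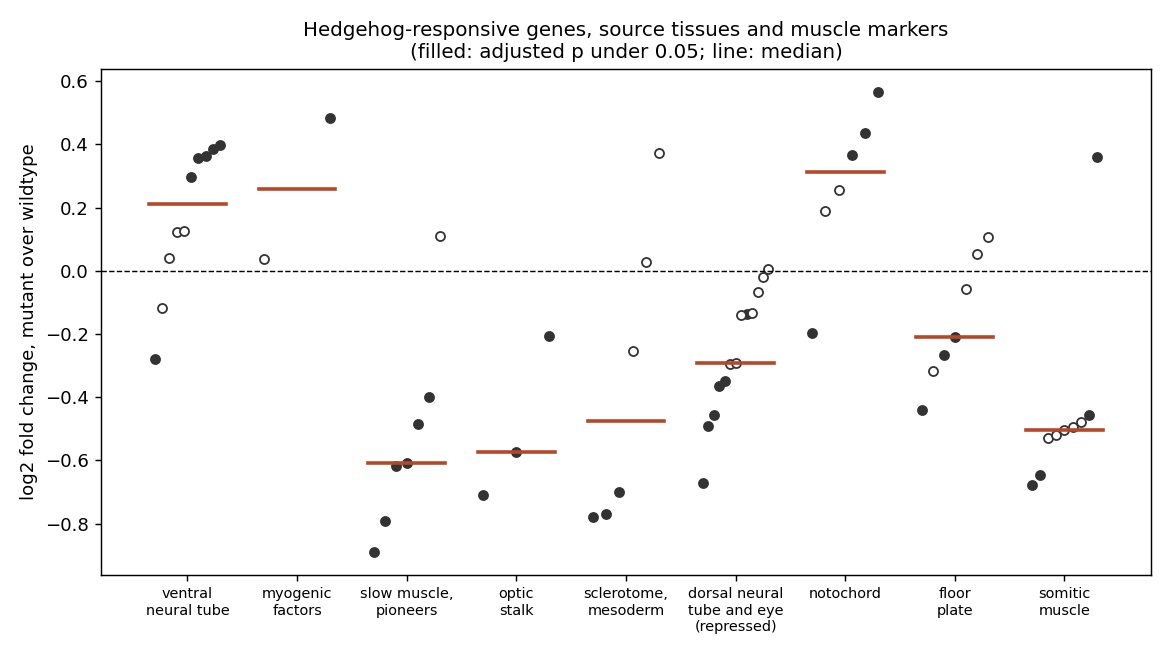
Log2 fold change, mutant over wildtype (vertical axis), of single genes (points, filled where the adjusted p was under 0.05) and their median (line) in groups of genes that Hedgehog signals activate, a group they repress, the source tissues of the ligands and general muscle markers. Ventral neural tube and notochord genes lie mostly above 0, while slow muscle (median -0.61), optic stalk, sclerotome and dorsal genes lie mostly below it, as do the muscle markers (median -0.50).

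Some marker genes of the tissues that make the ligands passed as well. Of 6 notochord genes tested (*tbxtb* was not analysed here), 3 rose and 1 fell, against 17.4% and 17.1% of all genes. *tbxta*, the Brachyury gene of notochord and tailbud, was at 111, 123 and 157 CPM in mutants A, C and D, against 81.1, 90.7 and 91.8 CPM in wildtype (log2 fold change 0.57, adjusted p = 0.0018). The collagen genes *col2a1a* and *col8a1a* rose by 0.44 and 0.37, and *ccn2a* fell by 0.20 on the log2 scale. The summed level of the 6 was 2399 to 3363 CPM in the mutants and 2016 to 2348 CPM in wildtype. Most of that sum was *col2a1a*, with 1493 to 2160 CPM in the mutants and 1213 to 1452 CPM in wildtype. Mutant D had the highest *tbxta* level, as it had for *shha* and *ihhb*, and without it *tbxta* was at 0.41, *col2a1a* at 0.27 and *col8a1a* at 0.23, all still passing. Without wildtype A, *col2a1a* and *col8a1a* did not pass (adjusted p = 0.060 and 0.051) and only *tbxta* remained higher. Without mutant D the median of the 6 notochord genes was 0.18, against 0.31 with all libraries. Among 7 floor plate genes 0 rose and 3 fell in each of the 3 tools (3 had an unadjusted p under 0.05 in edgeR), *foxj1a* (-0.27), *arxa* (-0.44) and *ntn1a* (-0.21). That is 42.9% of the 7. The shares of lower calls were 17.1% over all genes and 20.6% at the level of the 9 Hedgehog genes. In either direction they were 34.5% and 42.3%. The 4 floor plate genes that did not pass were *ntn1b* (0.11), *spon1b* (0.052), *foxj1b* (-0.057) and the scarce *spon1a* (-0.32). *foxa2*, also a floor plate gene, was counted with the ventral neural tube above and rose (0.36). The sum of the 7 was 161 to 178 CPM in the mutants and 185 to 191 CPM in wildtype. The call of *ntn1a* held in 3 of the 6 fits with a library left out and that of *ccn2a* likewise in 3. Some of these genes are expressed elsewhere in the embryo too, and the part of notochord or floor plate content in the ligand levels was not tested. Markers of other tissues moved as well: 3 of 3 epidermal, 4 of 4 primitive blood and 3 of 3 germ cell markers were higher in the mutants. Their summed levels were 19772 to 24101, 140 to 174 and 15.6 to 23.7 CPM in the mutants, against 13512 to 14141, 96.5 to 115 and 6.68 to 8.14 CPM in wildtype. Other tissues were mixed. Among hatching gland markers *ctslb* was higher (0.15, passing in 3 of the 6 fits with a library left out), *he1.2* was lower (-0.71) and 1 did not pass. Of 3 neural progenitor markers 1 was lower (*sox3*, -0.20), and of 3 neuronal markers 1 was higher (*isl1*, 0.21). Of endothelial markers 0 of 3 passed (0 at an unadjusted p under 0.05 in edgeR, 0 in DESeq2's Wald test and in limma-voom).

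The genes whose profile over the 6 libraries was most like that of *gli1* were *anapc1*, *SHROOM2* and *psma3*. Likeness was the root mean square difference of log2 CPM after each gene's mean was subtracted, over 16628 genes of at least 1 CPM, and it was 0.0075, 0.010 and 0.012 for the 3 genes. Their log2 fold changes were -0.27, -0.25 and -0.27. That they were lower in the mutants like *gli1* follows from how they were picked.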

How the data were processed

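The authors sequenced stranded polyA libraries, quality checked the reads (FastQC), assigned them to DanRer7 transcripts with RSEM 1.2.28, dropped ribosomal RNA and deposited expected counts, unnormalized estimated counts per gene. Their own DESeq2 comparison (fold changes and p-values) was deposited beside them and was not used. Columns carry genotype and a letter, so each was assigned to a genotype and not to a numbered replicate; 0 other columns of per-library values were left out.

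Expected counts were rounded, filtered with filterByExpr (20021 of 23150 genes), scaled by TMM and tested with edgeR 4.0.16 (glmQLFit, glmQLFTest, R 4.3.3), two-sided, with Benjamini-Hochberg adjustment over all genes tested. The standard error is the log2 fold change divided by the square root of F, and 95% intervals use it with the model's degrees of freedom. Alternatives were other scalings, DESeq2 1.42.0, limma 3.58.1 (voom), other filters and leaving out each library. Scaling by library size alone was chosen with the data in view. The fit was tested on counts simulated from its own dispersions, with far fewer genes changed than were called here. That check does not probe scaling or error rates under so broad a change. The 9 genes and the lists were chosen with earlier results of these data known. All 9 are named, with the genes that passed in the lists of other pathway, activated, repressed and source tissue genes and some others of the same roles. Of cell type markers only some are named. Genes were matched by symbol, older symbol or GRCz12tu synonym. A further 2 genes were taken out of the lists and are not reported here.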

Additional observations from a re-analysis of the deposited data

How the results depend on the processing

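Of 117 refits of the 9 Hedgehog genes (13 alternatives each), 111 kept direction and side of the threshold. The exceptions were 5 for *shha*, which was no longer called, and 1 for *ihhb*, which changed sign. With each library left out, *ihhb* ran from -0.077 (without mutant D) to 0.29 and the log2 difference of the *ihhb* to *shha* ratio from -0.19 to 0.079. That difference was 0.079, 0.039 and 0.0057 without mutant A, mutant C and wildtype B. Left-out libraries gave 5 to 6 called Hedgehog genes, 3 to 5 other pathway genes (5 without mutant D) and 4 to 7 source tissue genes (4 without wildtype A, where 1 was higher and 3 were lower), against 6, 3 and 7. Requiring a fold change over 2 left 992 of the 6899 genes called, and 0 of the Hedgehog genes, 0 other pathway genes, 0 activated, 0 repressed and 0 source tissue genes in edgeR, where 6, 6, 20, 8 and 8 passed 0.05 without adjustment (p) at any fold. Both limma-voom and DESeq2's Wald test left 0 in each too. No paired analysis was possible because the count columns do not carry the replicate numbers of the labels.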
